A study of Neurospora crassa with 12 samples.

Results

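The early transcriptional response of Neurospora crassa to heat-stable antifungal factor (HSAF) was described from 6 RNA-seq libraries, 3 of mycelium exposed to HSAF for 5 min (HSAF-5, libraries D, E and F) and 3 of untreated mycelium (HSAF-0, libraries A, B and C). They belong to a time course of 12 libraries, whose other 6 were taken at 30 min (HSAF-30) and 60 min (HSAF-60). All were made from mycelium of the wild-type strain FGSC2489, for which the labels give an age of 48 h after inoculation and 40 μM HSAF, while the study's methods give a shorter growth time. HSAF is a polycyclic tetramate macrolactam made by the bacterium Lysobacter enzymogenes. A group that received a mock addition is not among these samples, so exposure to HSAF and the handling that went with it cannot be told apart. Members were taken by identifier: of the 11409 features in the count table, the 9729 with an NCU locus number were kept, and 7582 of these passed a filter on low counts and were tested.

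The wall of a filamentous fungus is a mesh of chitin and beta-glucans to which mannoproteins are attached, and it is built at the hyphal tip by synthases in the plasma membrane and by enzymes that cut and join glucan outside it. Damage to wall or membrane is known to be read by surface sensors, a MAP kinase cascade and calcium influx, and to be followed by delivery of new wall and membrane by vesicles. Inositol lipids and inositol phosphates link these parts, since phospholipase C and lipid kinases act on the same membrane.

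Total counts were 11822743 to 13886954 over the 6 libraries, but a pair of features named newGene_189 and newGene_190 held 34.9% to 80.4% of the counts in HSAF-0 and 39.8% to 77.8% in HSAF-5. This left 2586940 to 8877132 counts on NCU genes in HSAF-0 and 2807816 to 7412077 in HSAF-5, with the fewest in libraries A and D. Levels are given as CPM, which are counts scaled to a common size over the NCU genes with TMM factors. As RNA was extracted from whole cultures, fewer cells of a kind and less RNA per cell cannot be told apart. Markers of vegetative mycelium summed to 18551 to 21174 CPM in HSAF-0 and 17590 to 20285 CPM in HSAF-5. Markers of conidia and aerial hyphae summed to 293 to 1102 CPM in HSAF-0 and 1271 to 4476 CPM in HSAF-5. The largest part was ccg-13, at 639, 905 and 164 CPM in HSAF-0 and 1134, 3736 and 779 CPM in HSAF-5. Its groups overlapped and it was not called (edgeR, adjusted p = 0.079). Of the 9, only ccg-1 was called higher, a call lost without any 1 of A to F but B. The log2 fold changes of fl and con-10 were -1.23 and -0.25, and those of the other tested markers were positive. The spore markers con-6, con-10 and con-13 had at most 8 counts in any of the 6 libraries, and con-13 had 0 counts in all 3 HSAF-0 libraries. Markers of sexual tissue summed to 72.4 to 211 CPM in HSAF-0 and 57.6 to 227 CPM in HSAF-5, with matA-2 and matA-3 at 0 counts in all 6 libraries.

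Within 5 min of exposure, 909 of the 7582 tested genes passed edgeR's quasi-likelihood test with at least a 2-fold change and a p below 0.01 after Benjamini-Hochberg adjustment, and are named called genes from here on. Of these, 737 (9.72% of the tested genes) were higher and 172 (2.27%) were lower in HSAF-5. Among the higher genes the median change was 5.58-fold, 525 changed at least 4-fold, 251 at least 8-fold and 118 at least 16-fold. Their median level went from 15.4 CPM in HSAF-0 to 87.2 CPM in HSAF-5. The lower genes were a smaller and weaker set, with a median log2 fold change of -1.94 and a median level that went from 19.3 to 5.15 CPM. In 735 of the 737 higher genes and in all 172 lower genes, the 3 libraries of one group did not overlap the 3 of the other. Over all tested genes, 23.4% did not overlap with HSAF-5 higher and 24.9% with HSAF-5 lower.

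**Figure D1:**
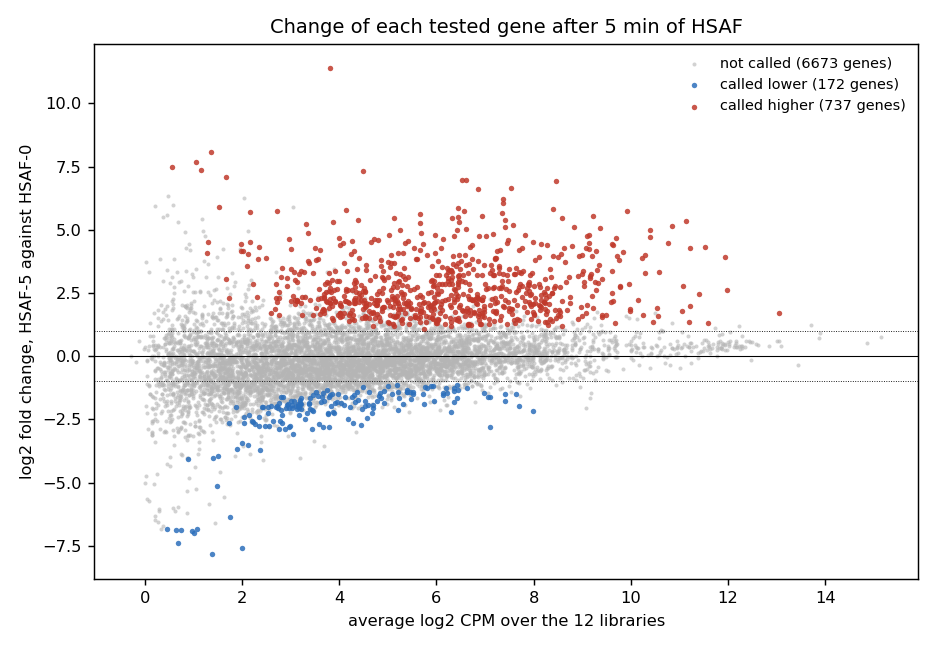
Each point is 1 of the 7582 tested genes, with its average log2 CPM over the 12 libraries on the horizontal axis and its log2 fold change between HSAF-5 and HSAF-0 on the vertical axis. Dotted lines mark a 2-fold change. The 737 genes called higher reach from weakly to strongly expressed genes, and the 172 called lower lie at weak to moderate levels.

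The called genes took a different share of each library. The 737 higher genes held 4.01%, 4.33% and 3.56% of the NCU counts in the HSAF-0 libraries, against 15.96%, 18.1% and 15.8% in the HSAF-5 libraries. The 172 lower genes held 0.990%, 0.967% and 0.888% in HSAF-0 and 0.225%, 0.196% and 0.186% in HSAF-5. These shares do not depend on how libraries were scaled, but the genes were chosen on this contrast and the shares are a description only. In the later libraries, which entered the fit but not this contrast, the higher genes held 23.5% to 25.04% of the NCU counts in HSAF-30 and 10.3% to 15.2% in HSAF-60. For the lower genes the shares were 0.180% to 0.314% in HSAF-30 and 0.599% to 0.882% in HSAF-60. All 3 HSAF-30 libraries thus lay above all HSAF-5 libraries for the higher genes, and all 3 HSAF-60 libraries lay between HSAF-0 and HSAF-5.

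**Figure D2:**
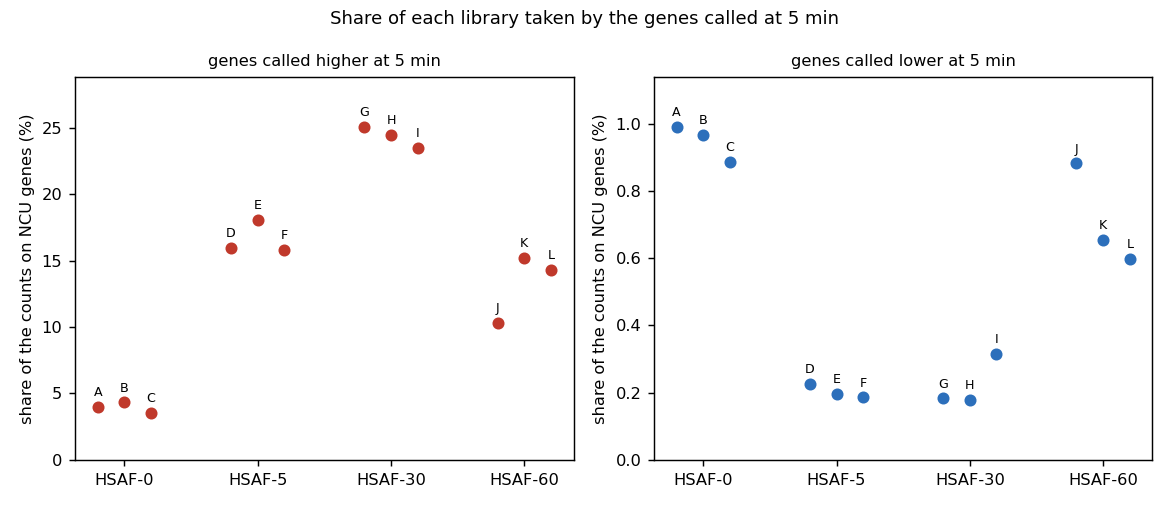
Points give the percentage of the counts on NCU genes that fell on the genes called higher (left) and lower (right) at 5 min, for each of the 12 libraries by its letter. The higher genes held 3.56% to 4.33% in HSAF-0 and 15.8% to 18.1% in HSAF-5, and HSAF-30 and HSAF-60 were not part of the contrast that chose them.

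How many genes were called lower depended on the scaling. Higher genes made up 81.1% of the calls under TMM scaling, 62.8% under upper quartile scaling, 46.3% under library size scaling and 68.7% in DESeq2. The median of all tested genes stood at a log2 fold change of -0.11 under TMM scaling, which moved to -0.36 under upper quartile scaling and to -0.61 under library size scaling, and a list median is to be read against these values. All 533 genes called higher with library size alone were among the 737. Without A and D, 396 genes were called higher, 395 of them among the 737, and 11 were called lower. Leaving out any 1 of A to F gave 498 to 618 higher genes and 46 to 72 lower genes.

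**Figure D3:**
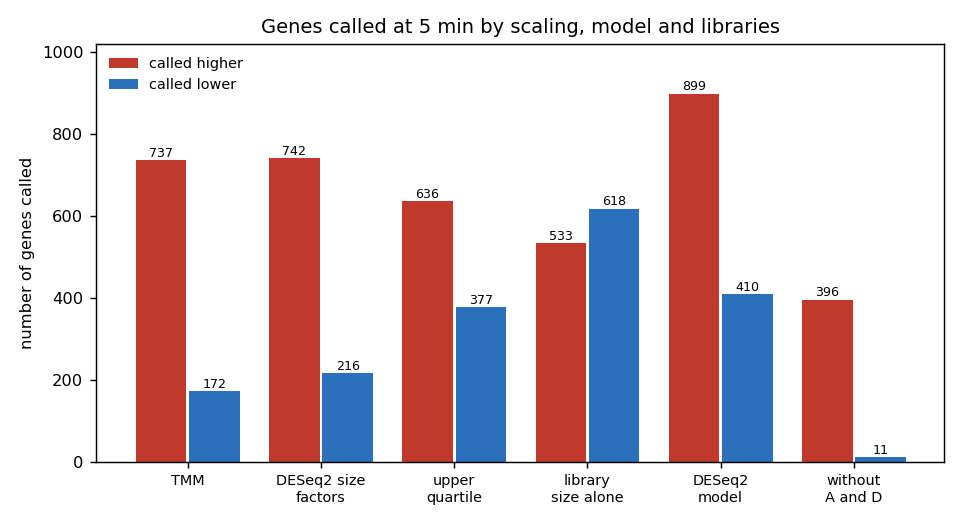
Bars give the number of genes called higher (red) and lower (blue) in HSAF-5 under 4 ways of scaling in edgeR, in DESeq2, and without libraries A and D. The number called higher ranged from 396 to 899 and the number called lower from 11 to 618.

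Among the more abundant genes (an average log2 CPM of 5 or more), the 10 largest increases were all in genes without a symbol. Most tested genes have none: 1060 of 7582 have a symbol. Of those with a symbol 8.49% were called higher, and of those without 9.92%. Of the 737 higher genes, 90 have a symbol in the reference annotation, and of the 716 with an entry in the readable part of the study's annotation table, 386 are described only as hypothetical or uncharacterized. NCU05351 went from 0.964, 0.418 and 0.992 CPM to 74.9, 85.8 and 139 CPM, a log2 fold change of 6.98 ± 0.57 (edgeR, adjusted p = 7.8e-07). NCU09627 stood at 1.61, 2.92 and 1.65 CPM in HSAF-0 and 167, 207 and 414 CPM in HSAF-5. Both were below 3 CPM in every HSAF-0 library, and their nearest libraries were 75.5-fold and 57.2-fold apart. The log2 fold changes of NCU05131, NCU09522, NCU00247, NCU16729, NCU09523 and NCU16445 were 6.93, 6.66, 6.23, 6.07, 5.88 and 5.76. The other 2 of the 10 largest increases at this abundance were in annotated genes, the inositol monophosphatase NCU09567 and the calcineurin-binding protein NCU01504, which are described with their groups. All 10 were called under each of the 4 scalings, in DESeq2, and without A and D.

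Functional groups were followed through 40 lists of genes with symbols, covering 830 tested genes, of which 8.80% were called higher and 2.29% lower. Over all lists together, the share called was thus close to that of all tested genes, and the calls lay unevenly across the lists. No test of the difference between a list and the other genes was made.

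**Figure D4:**
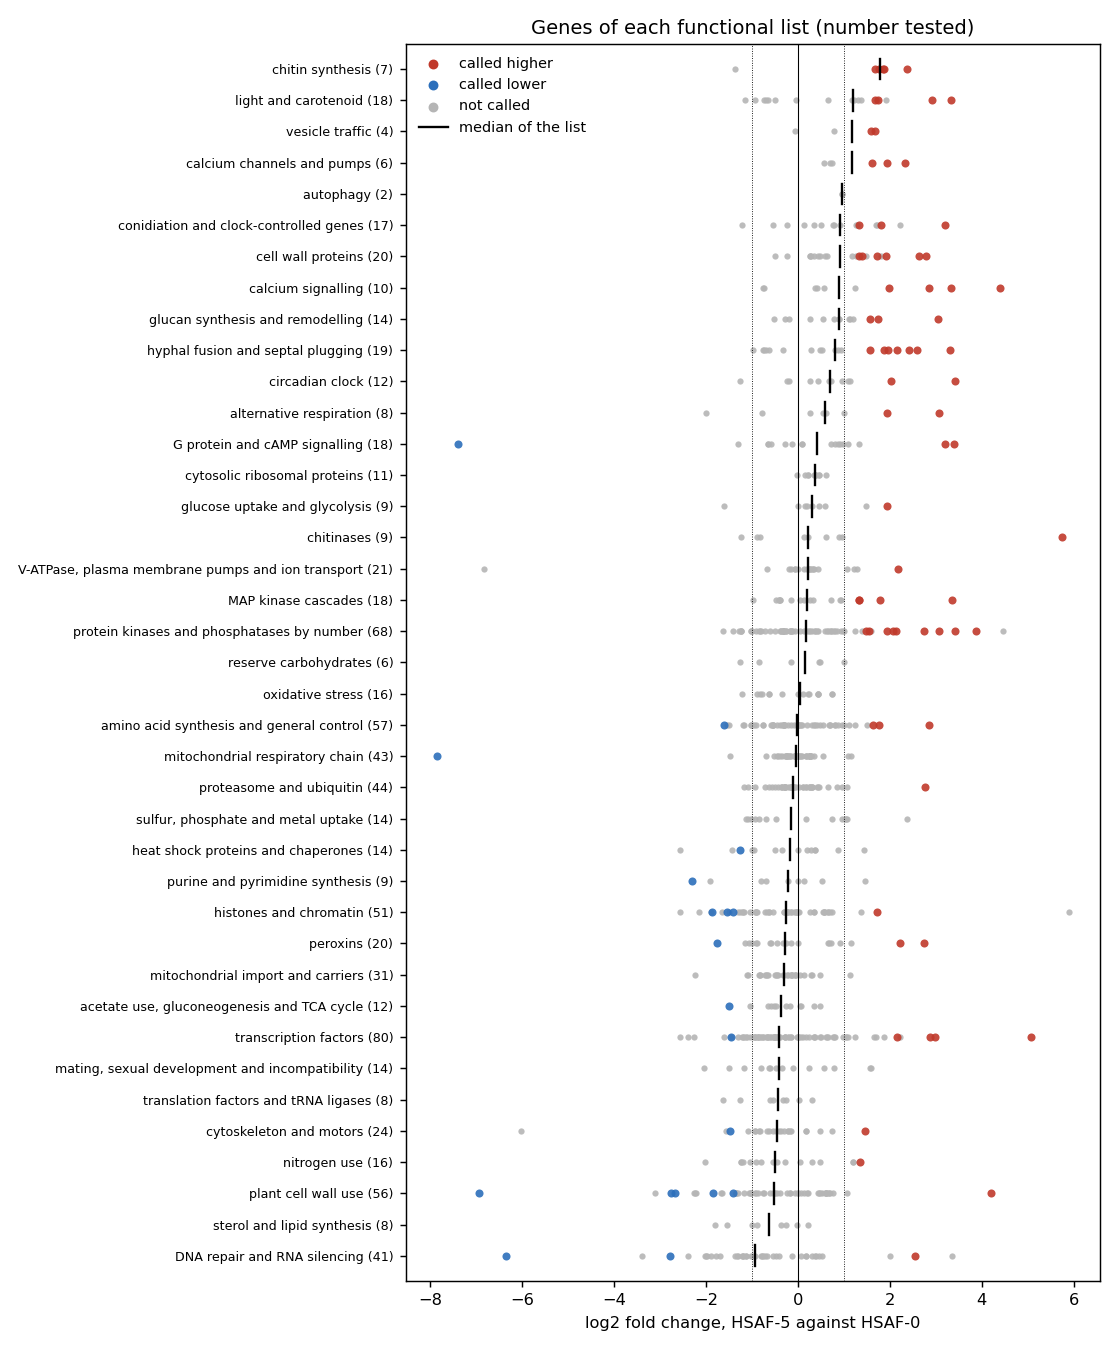
Each point is the log2 fold change of 1 gene between HSAF-5 and HSAF-0, by functional list (those described in the text), with the number of tested genes of the list in parentheses. Red and blue points were called higher and lower, and the black bar is the median of the list. Chitin synthesis lies at the top with a median of 1.78 and DNA repair and RNA silencing at the bottom with -0.93, where the median over all tested genes is -0.11.

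Most genes for chitin synthesis rose. Of the 7 tested, 5 (71.4%, beside 9.72% over all genes) were called higher and 0 lower, with a median log2 fold change of 1.78 (0 lower also at an unadjusted p under 0.05 and in DESeq2). The chitin synthase gene chs-1 stood at 138, 119.7 and 149.6 CPM in HSAF-0 and 716, 617 and 789.8 CPM in HSAF-5, so that every HSAF-5 library exceeded every HSAF-0 library at least 4.12-fold. Its log2 fold change was 2.38 ± 0.30 (edgeR, adjusted p = 2.1e-05). The gene gfa1, for the amidotransferase that starts the pathway to the chitin precursor UDP-N-acetylglucosamine, rose from 232, 259 and 285 CPM to 951, 685 and 1192 CPM (log2 fold change 1.87 ± 0.30). The synthase genes chs-3, chs-4 and chs-5 rose with log2 fold changes of 1.76, 1.85 and 1.68. For chs-3 the values were 23.5, 23.9 and 23.5 CPM in HSAF-0 and 93.9, 69.1 and 77.9 CPM in HSAF-5, with all HSAF-5 libraries higher. Not called were chs-6, at -1.36 (edgeR, adjusted p = 0.15), and chs-9, which was higher, at 1.78 ± 0.49. For chs-9, annotated as a chitin synthase activator, the values were 25.1, 16.01 and 11.9 CPM in HSAF-0 and 64.3, 92.6 and 23.3 CPM in HSAF-5. The HSAF-5 library F lay below the HSAF-0 library A in this gene, and its adjusted p was 0.015 (edgeR). The list had 4 to 6 called genes without any 1 of A to F, 4 with library size alone, and 1, chs-1, without A and D.

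Some genes for enzymes that cut or remodel the wall rose. Of the 9 chitinase genes tested 1 (11.1%) was called higher, beside 9.72% over all genes, and it was among the largest named increases: gh18-5, annotated as an endochitinase, stood at 18.96, 26.4 and 19.3 CPM in HSAF-0 and 994, 1384 and 1106 CPM in HSAF-5. Its log2 fold change was 5.75 ± 0.41 (edgeR, adjusted p = 3.8e-07), and the lowest HSAF-5 library was 37.6-fold above the highest HSAF-0 library. The other 8 lay between -1.23 and 0.97. NCU10852, which has no symbol and is annotated as an exochitinase, rose from 25.7, 30.5 and 30.2 CPM to 552, 516 and 1261 CPM. Library F stood above D and E there, and the nearest libraries of the 2 groups were 16.9-fold apart. Among 14 genes of glucan synthesis and remodelling, 3 (21.4%, beside 9.72% over all genes) were called higher and 0 lower (0 lower at an unadjusted p under 0.05 and in DESeq2), with a median of 0.89. The glucanosyltransferase genes gel-4 and gel-3, whose enzymes lengthen and join glucan chains, rose with log2 fold changes of 3.05 ± 0.43 and 1.57 ± 0.36. The gene gh76-7, related to the yeast protein Dfg5 that links mannoproteins to the wall, rose by 1.75. The beta-1,3-glucan synthase gene do, also known as fks, had a log2 fold change of 1.14 ± 0.30 and was not called (edgeR, adjusted p = 0.011). For gh16-5, annotated as a cell wall glucanase, the values were 118, 106 and 74.3 CPM in HSAF-0 and 208, 362 and 110.3 CPM in HSAF-5, with library F inside the HSAF-0 range. Without A and D, gel-4 was the 1 gene of this list called, and with library size alone the list had 1 call. Chosen after its values were seen, the alpha-glucan synthase gene NCU02478 had 13.5, 13.2 and 12.2 CPM in HSAF-0 and 201, 205 and 172 CPM in HSAF-5, a log2 fold change of 3.89 ± 0.40.

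Structural proteins of the wall had several abundant transcripts that rose. Of 20 tested genes, 6 (30.0%, beside 9.72% over all genes) were called higher and 0 lower (0 lower at an unadjusted p under 0.05 and in DESeq2), with a median of 0.90. The anchored cell wall protein gene acw-3 stood at 941, 1386 and 1124 CPM in HSAF-0 and 6825, 7095 and 7455 CPM in HSAF-5, close values within HSAF-5 and a 4.92-fold distance between the nearest libraries of the groups. The gene acw-4 went from 271, 461 and 298 CPM to 1993, 2575 and 2491 CPM, and acw-5 and acw-10 rose by 1.91 and 1.40 on the log2 scale. The non-anchored protein gene ncw-3 went from 3970.3, 5357 and 2723 CPM to 11582, 16211 and 11631 CPM. Its call, like that of the clock-controlled wall gene ccg-15 (log2 fold change 1.33), was lost when single libraries were left out. The list had 3 calls without A, 4 without B, 4 without C, 3 without D, 4 without E and 5 without F, and 3 without A and D together. Summed over the list, the level was 16123 to 22706 CPM in HSAF-0 and 43753 to 63851 CPM in HSAF-5.

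In the signalling that acts on the wall, some members of a cascade rose and their partners were not called. Of 18 genes of the MAP kinase cascades, 4 (22.2%, beside 9.72% over all genes) were called higher and 0 lower (0 lower at an unadjusted p under 0.05 and in DESeq2). The clearest was mek-1, the MAP kinase kinase of the wall integrity pathway, at 103, 112 and 109 CPM in HSAF-0 and 948, 1277 and 1081 CPM in HSAF-5. All HSAF-5 libraries were at least 8.497-fold above HSAF-0, with a log2 fold change of 3.35 ± 0.37 (edgeR, adjusted p = 6.0e-06). The kinases before and after it, mik-1 and mak-1, had log2 fold changes of -0.97 ± 0.59 and 0.26 ± 0.30 and were not called (edgeR, adjusted p = 0.25 and 0.56). The wall sensor gene wsc-1 rose by 1.34 and the response regulator genes rrg-1 and rrg-2 by 1.79 and 1.33 on the log2 scale. The calls of wsc-1 and rrg-2 were lost with upper quartile factors, with library size alone and without most single libraries, which left 2 calls in the list without any 1 of A to E and 1, mek-1, without A and D. For protein kinase C (pkc) the change was -0.49 ± 0.27, not called (edgeR, adjusted p = 0.21).

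A group of genes acting on inositol and its phosphates held some of the largest increases in the data. Inositol monophosphatase releases free inositol, and NCU09567, annotated as one, stood at 0.643, 0.835 and 0.772 CPM in HSAF-0 and 47.4, 117 and 65.7 CPM in HSAF-5. It was below 1 CPM in every HSAF-0 library and above 40 CPM in every HSAF-5 library, with a log2 fold change of 6.61 ± 0.69 (edgeR, adjusted p = 4.3e-06). NCU06315, annotated as an inositol hexaphosphate kinase, an enzyme type that makes inositol pyrophosphates, went from 20.9, 24.1 and 21.6 CPM to 921, 1182 and 1050.3 CPM. Its nearest libraries were 38.2-fold apart, and its log2 fold change was 5.56 ± 0.42 (edgeR, adjusted p = 4.9e-07). A phosphatidylinositol-specific phospholipase C gene, NCU02175, went from 6.75, 9.05 and 5.95 CPM to 207, 275 and 204 CPM. Of the 716 higher genes with an annotation, 17 carried words for inositol phosphates or phosphoinositides, with a median log2 fold change of 2.84, and among them the lipid kinase gene mss4, which makes phosphatidylinositol bisphosphate, rose by 2.85. The 55 lower genes with an annotation held 1 such gene, NCU03492, an inositolphosphorylceramide hydroxylase at -1.45 ± 0.33. Annotations were readable for 716 of the 737 higher genes but 55 of the 172 lower genes, so these counts cannot be set against each other. These word groups were formed after the values had been seen. The table they come from was made by the study from genes that changed in these samples, so the counts have no background.

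Genes for proteins that bind or bend membranes rose strongly. There were 8 annotated with BAR, C2, PX, annexin or flotillin domains, all higher by the choice of the set, with a median log2 fold change of 4.39. BAR domains are curved and shape membranes, and NCU01068, annotated with one, stood at 39.2, 47.6 and 30.3 CPM in HSAF-0 and 1369.8, 1702 and 997 CPM in HSAF-5. Its neighbour in the gene order is amph-1, an amphiphysin-like protein known from hyphal fusion, which went from 28.6, 36.9 and 31.3 CPM to 189.6, 201 and 194 CPM. The nearest libraries of the groups were 5.14-fold apart in amph-1. NCU04637, related to the yeast endocytosis protein RVS167, went from 16.4, 24.1 and 14.1 CPM to 383, 465 and 397 CPM, and NCU02244, with a C2 domain that binds lipid in the presence of calcium, from 4.18, 9.05 and 7.496 CPM to 297, 283 and 252 CPM. NCU11324, annotated with a lipid-binding PX domain, had a log2 fold change of 4.39 ± 0.44. All 5 were called without any 1 of A to F, and amph-1 alone lost its call without A and D. Annotations of vesicle traffic and endocytosis were found for 32 of the 716 higher genes, at smaller changes (median 1.93). They included NCU01911, related to the exocytosis factor Sec2p, at 3.73 ± 0.48, and the arrestin-like genes NCU05721, NCU08967 and NCU03887, at 2.59, 2.50 and 2.48. Of 4 vesicle traffic genes with symbols, the syntaxin genes syn-1 and syn-2 were called higher, at 1.67 and 1.58, and neither without A and D.

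Some calcium genes rose on both sides of the pathway, in transport and in sensing. Of 6 genes for calcium channels and pumps, 3 were called higher and 0 lower (0 lower at an unadjusted p under 0.05 and in DESeq2). This count from a small list is to be read beside 9.72% called higher over all genes. The Golgi pump gene pmr-1 went from 36.6, 28.96 and 43.3 CPM to 212, 125 and 213 CPM, with library E lowest of the HSAF-5 libraries. The vacuolar exchanger gene cax rose by 1.95 and the plasma membrane pump gene nca-2 by 1.60 on the log2 scale. The paralogs nca-1 and nca-3 and the stretch-activated channel subunit gene mid-1 were at 0.57 ± 0.32, 0.75 ± 0.46 and 0.69 ± 0.29, not called (edgeR, adjusted p = 0.22, 0.26 and 0.1). For nca-1, 101, 76.98 and 81.6 CPM in HSAF-0 and 126, 90.2 and 168 CPM in HSAF-5, the groups overlapped. The list kept 2 calls without any 1 of A, B, C or D, and pmr-1 alone without A and D.

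**Figure D5:**
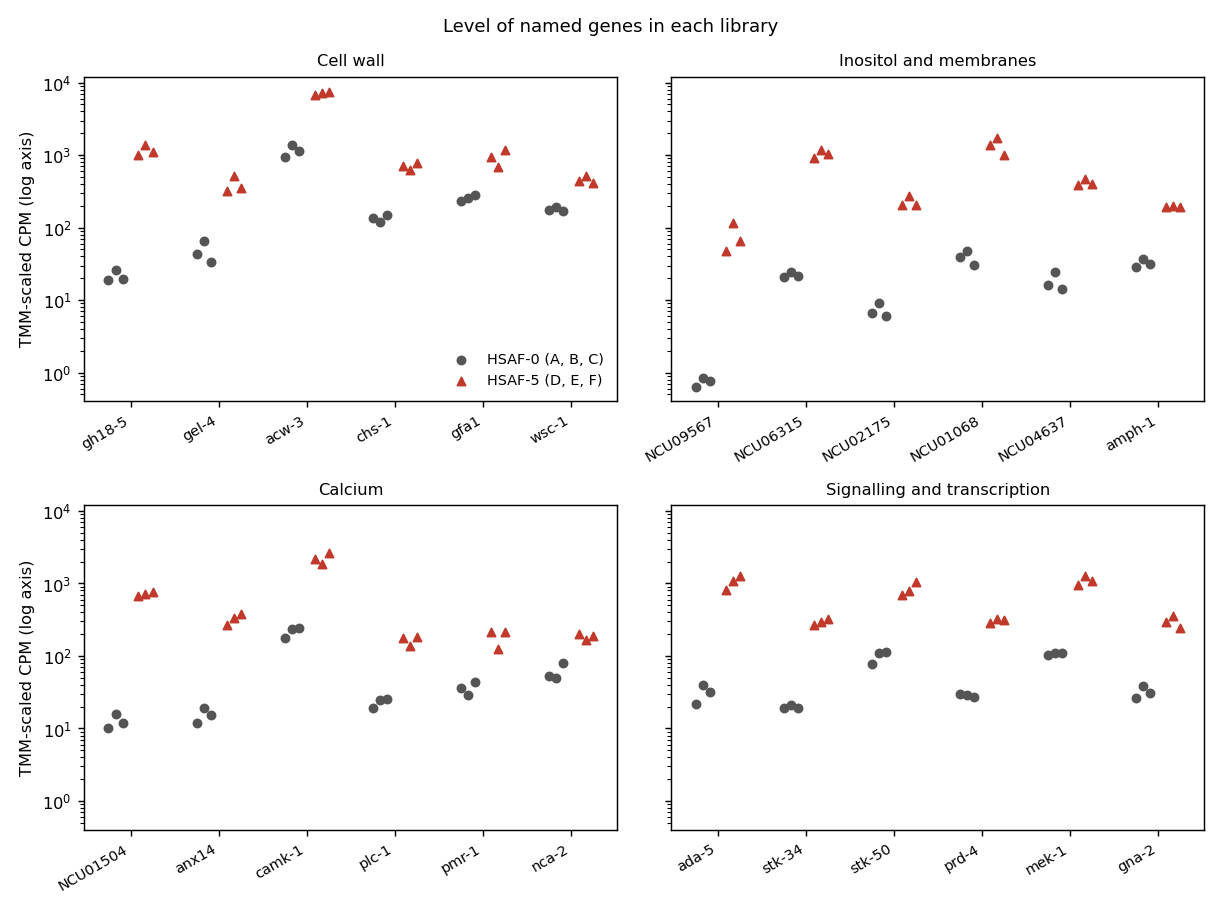
Each point is the TMM-scaled CPM of a gene in 1 library on a log axis, grey circles for HSAF-0 and red triangles for HSAF-5, in 4 groups of 6 genes. In each of the 24 genes the 3 HSAF-5 values lie above the 3 HSAF-0 values, with the widest gaps in gh18-5, NCU09567, NCU06315 and NCU01504.

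On the sensing side, 4 of 10 calcium signalling genes (40.0%, beside 9.72% over all genes) were called higher and 0 lower (1 lower at an unadjusted p under 0.05, 0 in DESeq2). NCU01504 is outside this list, annotated as a protein that binds calcineurin, the calcium-dependent phosphatase. It had 10.3, 15.7 and 12.02 CPM in HSAF-0 and 679.6, 713 and 774 CPM in HSAF-5, with close values within HSAF-5, at 5.82 ± 0.42 (edgeR, adjusted p = 3.8e-07). The annexin gene anx14, for a protein that binds membranes when calcium is present, went from 11.9, 19.4 and 15.1 CPM to 267, 334 and 379.8 CPM. The calmodulin-dependent kinase gene camk-1 stood at 176, 235 and 245 CPM in HSAF-0 and 2157, 1839 and 2656 CPM in HSAF-5, 7.498-fold apart at the nearest libraries. Its relatives camk-2, camk-3 and camk-4 had log2 fold changes of -0.76 ± 0.29, -0.75 ± 0.51 and 1.24 ± 0.33, none of them called (edgeR, adjusted p = 0.068, 0.31 and 0.012). Phospholipase C (plc-1), which releases inositol trisphosphate, rose from 18.96, 24.8 and 25.5 CPM to 176, 138 and 184 CPM, and the calcium sensor gene cse-1 by 1.99 on the log2 scale. The genes for calmodulin itself (cmd) and the calcineurin regulatory subunit (cnb-1) were at 0.38 ± 0.33 and 0.57 ± 0.33, not called (edgeR, adjusted p = 0.44 and 0.23). The same 4 calls stood without any 1 of A to F, and 3 without A and D.

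Genes of hyphal fusion and septal plugging had 7 of 19 (36.8%, beside 9.72% over all genes) called higher and 0 lower (3 lower at an unadjusted p under 0.05, 0 in DESeq2). The largest change was in mob-1, the partner of NDR kinases, from 32.5, 42.9 and 40.5 CPM to 427, 269 and 446 CPM. The fusion gene ham-6 rose by 2.41, ham-10 by 1.95 and ham-8 by 1.57 on the log2 scale, and the transcription factor gene adv-1, which fusion needs, by 2.16. The kinase gene nrc-2 rose by 1.87, and amph-1, described above, completes the 7. Genes at the core of fusion signalling were not called, with so at -0.63 ± 0.46, ham-5 at -0.99 ± 0.44 and mak-2 at -0.38 ± 0.35 (edgeR, adjusted p = 0.34, 0.12 and 0.46). The septal plug protein gene hex-1 was at 0.87 ± 0.33 (edgeR, adjusted p = 0.071). Without C the list had 4 calls, without any other 1 of A to F 6 or 7, and without A and D 2.

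Several more protein kinase genes rose. Of 68 numbered kinase and phosphatase genes, 9 were called higher and 0 lower (10 lower at an unadjusted p under 0.05, 1 in DESeq2). The share of 13.2% called higher is to be read beside 9.72% over all genes. The kinase gene stk-34 stood at 19.3, 21.3 and 19.1 CPM in HSAF-0 and 268, 290.0 and 319.6 CPM in HSAF-5, and prd-4, the checkpoint kinase 2 gene that is also tied to the circadian clock, at 29.9, 28.5 and 27.4 CPM in HSAF-0 and 285, 319 and 312 CPM in HSAF-5. The nearest libraries were 12.6-fold apart in stk-34 and 9.54-fold apart in prd-4. The AGC kinase gene stk-50, related to gad8 of fission yeast, rose by 3.07 on the log2 scale and prk-3 by 2.74. Among 18 genes of G protein and cAMP signalling, 2 were called higher, a share of 11.1% that is close to the 9.72% over all genes. These were the G protein alpha subunit gene gna-2, from 26.7, 38.1 and 30.8 CPM to 292, 351 and 243 CPM, and acon-2, needed for conidiation, from 3.86, 2.78 and 2.65 CPM to 35.5, 27.4 and 32.8 CPM. The receptor gene gpr-2 had 66 counts over HSAF-0 and 0 over HSAF-5, at least 12.7-fold lower against a floor of 3 counts over the group, and this call was lost without any 1 of A to F.

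Of 80 transcription factor genes with symbols, 4 (5.00%) were called higher and 1 (1.25%) lower, both smaller shares than the 9.72% and 2.27% over all genes. The gene ada-5, named for altered development, had 21.5, 40.2 and 31.7 CPM in HSAF-0 and 800.2, 1079 and 1283 CPM in HSAF-5, a log2 fold change of 5.07 ± 0.49 (edgeR, adjusted p = 2.6e-06). The lowest HSAF-5 library lay 19.9-fold above the highest HSAF-0 library. The gene ada-2 rose from 18.96, 24.1 and 17.6 CPM to 141, 171 and 165 CPM, tah-1 by 2.87 and adv-1 by 2.16 on the log2 scale, and tca-5 fell by 1.45. The list had 0 lower calls without A, B, C, D or F. Without A and D the list had 2 calls, both higher. The gene rpn-4, whose yeast counterpart activates proteasome genes, stands outside this list and that of proteasome genes, and rose from 10.3, 22.4 and 22.3 CPM to 185, 202 and 130.3 CPM. Of the 44 proteasome and ubiquitin genes, by contrast, 1 was called higher, fwd-2 at 2.76, and 0 lower (4 lower at an unadjusted p under 0.05, 0 in DESeq2). Among genes without a symbol, the zinc finger protein gene NCU03699 and the transcription factors by annotation NCU03728 and NCU04058 rose by 4.76, 4.52 and 4.28.

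Light, clock and conidiation genes rose in part. In the light and carotenoid list 4 of 18 genes (22.2%, beside 9.72% over all genes) were called higher and 0 lower (1 lower at an unadjusted p under 0.05 and in DESeq2), with a median of 1.20. The blue-light induced gene bli-4 had 30.2, 20.2 and 17.2 CPM in HSAF-0 and 202, 349 and 119.7 CPM in HSAF-5, with library E highest and F lowest in HSAF-5. The photolyase gene phr went from 6.43, 8.77 and 6.39 CPM to 66.4, 49.6 and 48.8 CPM. The phytoene desaturase gene al-1 and the cryptochrome gene cry rose by 1.75 and 1.67, calls that were lost with upper quartile factors, with library size alone and without any 1 of A to E. The photoreceptor genes wc-1 and vvd were at 0.66 ± 0.52 and 1.92 ± 0.53, not called (edgeR, adjusted p = 0.38 and 0.015). The list had 1 call without C and 1 without A and D. Of 12 clock genes 2 (16.7%, beside 9.72% over all genes) were called higher, prd-4 and the casein kinase subunit gene ckb-1 at 2.02. Of 17 conidiation and clock-controlled genes 3 (17.6%, beside 9.72% over all genes) were called higher and 0 lower (0 lower at an unadjusted p under 0.05 and in DESeq2). Among these 3, ccg-8 went from 7.71, 9.19 and 11.8 CPM to 85.9, 86.9 and 93.9 CPM. Without B this list had 2 calls and without any other 1 of A to F it had 1. The summed level of conidial and aerial markers given above, mostly that of ccg-13, moved with these genes, and its part in them was not tested.

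Transport and energy genes gave single large increases. The shares called in the lists of this paragraph stand beside 9.72% called higher and 2.27% called lower over all genes. NCU02591, annotated as a glycerol-proton symporter, stood at 54.6, 69.05 and 53.4 CPM in HSAF-0 and 1239, 1161 and 1263 CPM in HSAF-5, and the cation diffusion facilitator gene NCU06699 at 45.96, 57.5 and 55.01 CPM in HSAF-0 and 759, 865 and 929.6 CPM in HSAF-5. Every HSAF-5 library was above every HSAF-0 library, by at least 16.8-fold and 13.2-fold. Of 21 genes for the V-ATPase, plasma membrane pumps and ion transport, the potassium transporter gene trk alone (4.76%) was called, at 2.17. Its call was lost with upper quartile factors, with library size alone and without any 1 of A to E. Of 8 genes of alternative respiration, the external NADH dehydrogenase gene nde-1 rose from 13.2, 9.19 and 9.04 CPM to 42.7, 33.4 and 42.6 CPM, and the alternative oxidase gene aod-3, at low counts, rose by 3.07 on the log2 scale, a call lost without any 1 of A to D. The sugar sensor gene sor-4, also known as rco-3, rose by 1.93. It was the 1 call (11.1%) among 9 genes of glucose uptake and glycolysis, and was lost without A and D. In amino acid metabolism, 3 of 57 genes (5.26%) were called higher (arg-13, ser-7 and aro-7) and 1 (1.75%) lower (cys-17). None of the 3 higher calls stood without A. The glutamine synthetase gene gln-1, the 1 call (6.25%) of 16 nitrogen genes, rose by 1.34, a call lost without any 1 of A to F. Of 20 peroxin genes, pex13 rose from 58.2, 69.3 and 61.1 CPM to 377, 496 and 381 CPM and pex4 by 2.23, while pex19, for the receptor of peroxisomal membrane proteins, went from 88.7, 96.9 and 111 CPM to 36.8, 16.7 and 33.7 CPM.

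Among the called genes under TMM scaling, decreases were fewer and smaller than increases. With library size alone, more genes were called lower (618) than higher (533). Among the more abundant genes (an average log2 CPM of 5 or more), NCU04502 fell most, with 290.2, 350.0 and 289 CPM in HSAF-0 and 33.4, 51.2 and 49.4 CPM in HSAF-5. Every HSAF-5 library lay at least 5.64-fold below every HSAF-0 library, at -2.79 ± 0.30 on the log2 scale (edgeR, adjusted p = 6.0e-06). NCU04909, NCU16673 and NCU04826 followed at -2.20, -2.18 and -2.13, where library E held the lowest value of NCU04909 and NCU04826 and library D that of NCU16673. None of these genes has a symbol. Of the 30 named genes called lower, 6 were called without any 1 of A to F and 4 without A and D, against 79 and 66 of the 101 named genes called higher. The lower calls are therefore given as a group of limited stability.

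A list of glycoside hydrolase and related genes, drawn up for plant cell wall use, had 5 of 56 genes (8.93%, beside 2.27% over all genes) called lower and 1 higher, with a median log2 fold change of -0.53. Of those called, cbh-1 is known for cellulose breakdown, while others belong to families with other substrates. The mannosidase family genes gh47-6 and gh47-1 fell by 2.76 and 1.85 on the log2 scale and gh2-3 fell by 2.68, and gh31-2 fell by 1.42. The cellobiohydrolase gene cbh-1 had 46 counts in HSAF-0 and 0 in HSAF-5, at least 8.87-fold lower. The list had 0 to 3 lower calls without any 1 of A to F and 0 without A and D (13 lower at an unadjusted p under 0.05, 5 in DESeq2). The exception in direction was gh13-6, of the alpha-amylase family, which went from 14.5, 27.6 and 15.2 CPM to 263, 533 and 261 CPM.

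DNA repair and chromatin genes had 5 lower calls over 2 lists of 41 and 51 genes. In the list of DNA repair and RNA silencing 2 of 41 genes (4.88%, beside 2.27% over all genes) were called lower and 1 higher, with a median of -0.93. At an unadjusted p under 0.05 (edgeR), 15 of the 41 were lower, beside 1247 of all 7582 tested genes. The repair gene mus-23, the counterpart of MRE11, had 8.68, 6.404 and 5.18 CPM in HSAF-0 and 0.846, 0.548 and 1.35 CPM in HSAF-5, and pms-1, of mismatch repair, had 31 counts in HSAF-0 and 0 in HSAF-5, at least 5.98-fold lower. The call of pms-1 was lost without A, B, D, E or F and with the 2 groups alone, and that of mus-23 without E. The gene mus-43, annotated as rad14 of nucleotide excision repair, rose by 2.54. The list had 0 lower calls without E and none in either direction without A and D. Among 51 histone and chromatin genes 3 (5.88%, beside 2.27% over all genes) were called lower and 1 higher. These were dim-8 and dim-9, both of the complex needed for methylation of histone H3, at -1.41 and -1.55, crf7-1 at -1.87, and set-4, which rose by 1.72. Of the lower calls, dim-8 was lost without A, C, D or E, dim-9 without any of A to F but B, and crf7-1 without B, C, E or F. Single metabolic genes fell as well, with the xanthine dehydrogenase gene xdh-1 from 31.2, 24.5 and 20.9 CPM to 4.65, 6.58 and 4.24 CPM and the acetyl-CoA synthetase gene acu-5 from 466, 387 and 339 CPM to 147, 169 and 104 CPM. The call of xdh-1 was lost without F and that of acu-5 without any 1 of A to F.

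Lists of stress and housekeeping genes had few calls, and many of these lists are small. Over all tested genes, 9.72% were called higher and 2.27% lower. At an unadjusted p under 0.05 (edgeR), 1434 of the 7582 tested genes were higher and 1247 lower. Of 16 oxidative stress genes none was called (edgeR, 1 higher and 1 lower at an unadjusted p under 0.05, and 1 lower in DESeq2), and the superoxide dismutase gene sod-1 had 806, 947 and 1017 CPM in HSAF-0 and 443, 311 and 433 CPM in HSAF-5, a log2 fold change of -1.22 ± 0.40 (edgeR, adjusted p = 0.036). The HSAF-5 values of sod-1 were all below the HSAF-0 values. Among 14 heat shock and chaperone genes 0 were called higher (2 at an unadjusted p under 0.05, 0 in DESeq2) and 1 (7.14%) lower. This was hsp88 at -1.26, which lost its call without any 1 of A to F. The endoplasmic reticulum chaperone gene grp78 was at 0.28 ± 0.31 (edgeR, adjusted p = 0.54). For 11 cytosolic ribosomal protein genes there were 0 calls (0 at an unadjusted p under 0.05 and in DESeq2), and their median of 0.37 turned to -0.14 with library size alone. Of 31 genes of mitochondrial import and carriers none was called (edgeR, 0 higher and 5 lower at an unadjusted p under 0.05, 0 in DESeq2), and of 43 respiratory chain genes 1 was called lower, cya-5, with 91 counts in HSAF-0 and 0 in HSAF-5 (at least 17.5-fold lower, lost without B, C, E or F). Of 8 genes of sterol and lipid synthesis none was called (edgeR, 0 higher and 2 lower at an unadjusted p under 0.05, and 2 lower in DESeq2). The autophagy list held 2 tested genes and no call (edgeR, 2 higher and 0 lower at an unadjusted p under 0.05, 0 in DESeq2), and atg-8 stood at 588, 682 and 661 CPM in HSAF-0 and 1209, 936 and 1601 CPM in HSAF-5 (log2 fold change 0.96 ± 0.39, edgeR, adjusted p = 0.087). Outside it, atg3, atg5 and atg12 were at 0.27 ± 0.29, -0.87 ± 0.48 and 0.42 ± 0.62, not called (edgeR, adjusted p = 0.54, 0.21 and 0.66). Of 24 genes of cytoskeleton and motors, the kinesin gene nkin-2 was called higher at 1.46 and the dynactin gene ro-7 lower at -1.49, and neither call stood without A and D. The remaining lists had no call in edgeR. These were 8 genes of translation factors and tRNA ligases (0 higher and 2 lower at an unadjusted p under 0.05, 1 lower in DESeq2), 6 of reserve carbohydrates (1 and 1, 0 in DESeq2), 14 of sulfur, phosphate and metal uptake (5 and 2, 1 higher in DESeq2) and 14 of mating and incompatibility (2 and 3, 1 lower in DESeq2).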

How the data were processed

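RNA-seq libraries were made by the authors with the NEBNext Ultra kit from mycelium treated with HSAF. Reads were trimmed with Trimmomatic. No source used here names the aligner, the counter, the strand setting or the build. The authors deposited read counts per feature without normalization and the same libraries as FPKM. The paper names 2 sequencers without assigning libraries, so a batch could not be modelled. The paper speaks of 3 biological replicates per time point, and no source used here says how their cultures were kept apart, so p-values measure the spread between these libraries.

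Counts of the 9729 NCU genes in all 12 libraries were fitted with edgeR 4.0.16 under R 4.3.3 (TMM, filterByExpr with a minimum count of 10, 1 term per time point, quasi-likelihood test), and 7582 genes were tested. A call needed at least a 2-fold change and a p below 0.01 after Benjamini-Hochberg adjustment. A standard error is the log2 fold change over the root of its F value. The test was checked on simulated data. The alternatives were other scalings, DESeq2 1.42.0, limma 3.58.1 on log2(FPKM + 1) and log2(FPKM + 0.1), filters, the groups in the fit, a covariate, single libraries left out and, chosen after seeing the data, A and D left out. A group with 0 counts was set to a floor of 3 counts, which covers counting error only.

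The members and the gene lists were chosen with earlier results of these data known. Lists were patterns of symbols in the NC12 annotation, which gives 1118 and was used for names and gene order. Members of several lists were added or dropped by their function, and the peroxin list was formed, when values could already be seen. Product names came from the readable part of the study's table, which covers 1350 genes. Named were the 10 largest increases and decreases among called genes that were abundant (average log2 CPM of 5 or more) and whose groups did not overlap, the 20 largest increases and 12 largest decreases with a symbol and an average of at least 3, up to 4 called genes per list, the most abundant gene of a list without calls, genes of the paper's text, and leading genes of word groups. Other genes named beside these were chosen after their values were seen. The authors' own fold changes and p-values, which stand in the supplementary tables, were not used. Features outside the NCU genes held 26.4% to 93.7% of a library. Not used here were promoter sequences, and 1 gene list is not reported here.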

Additional observations from a re-analysis of the deposited data

Results flagged for a closer look

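The newGene features, of unstated definition, were outside the comparison of NCU genes and were tested apart, after seeing the data. Of 636 tested, 72 (11.3%) were called higher and 2 (0.314%) lower in HSAF-5 than in HSAF-0 by edgeR, in data that the comparison did not use. Over the tested NCU genes these shares were 9.72% and 2.27%, so the share called higher was close to theirs. Their place in the genome and their products are not known from the sources used here, so no function could be given.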

How the results depend on the processing

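No paired analysis was possible because each library carries a letter of its own and no number is shared by the groups. The number of higher genes stayed within 1.5 times of 737 under the other scalings, DESeq2, no filter, the 2 groups alone, no library I, the covariate and a looser threshold. Outside that range it was 396 without A and D, and in limma 34 on log2(FPKM + 1), 57 on log2(FPKM + 0.1) and 1 without a filter. The lower genes, 172 in the report, numbered 377 with upper quartile factors, 618 with library size alone, 410 in DESeq2, 447 with the 2 groups alone, 599 at a looser threshold (adjusted p below 0.05, any fold), 11 without A and D, 8 and 6 in limma with pseudocounts of 1 and 0.1, and 0 without a filter in limma (1226 lower at an unadjusted p under 0.05). In total, 1389 genes were called with the 2 groups alone, 1654 at the looser threshold, 407 without A and D, and 42, 63 and 1 in the limma settings. Leaving out 1 library gave 568 to 690 genes in total, 498 to 618 higher and 46 to 72 lower. The cause of these differences was not tested, except that fewer libraries entered when libraries were left out.

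Signs turned in genes that were not called. With limma, at pseudocounts of 1 and 0.1 and without a filter, the log2 fold change of ubi::crp-6 was -0.13, -0.13 and -0.13, the log2 fold change of het-c -0.15, -0.18 and -0.15, the log2 fold change of atg3 -0.43, -0.45 and -0.43, the log2 fold change of atg12 -0.12, -0.30 and -0.12 and the log2 fold change of nca-1 -0.16, -0.18 and -0.16. With library size alone, atg3 was at -0.24 and atg12 at -0.066. Leaving out 1 library, the log2 fold change of aac ranged from -0.61 to 0.30, the log2 fold change of erg-1 from -0.32 to 0.29 and atg12 from -0.0704 to 0.69. Between 5607 (library D) and 7167 (library C) NCU genes had at least 10 counts.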

Other observations

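Genes that rose lay next to each other in the genome more often than their share of all genes. In the gene order of the NC12 annotation, 352 of the 1473 tested neighbours of a higher gene (23.9%) were also called higher, against 9.72% of all tested genes. Without pairs that overlap, whose reads may be shared because the strand setting is not given, it was 322 of 1302 (24.7%). For lower genes it was 12 of 343 (3.50%) against 2.27%, and 6 of 309 (1.94%) without overlaps. Neighbours were not set against any other arrangement of genes, so these shares are a description. With overlapping genes kept in, there were 25 runs of at least 3 neighbours called higher, with 80 genes, and the longest held 4. One such run was NCU09524, NCU09523, NCU09522 and NCU09521, at log2 fold changes of 2.84, 5.88, 6.66 and 4.56. Another held NCU06317, NCU06316, NCU06315 and NCU06314 at 2.14, 4.62, 5.56 and 1.58, the inositol hexaphosphate kinase among them. In this run NCU06317 and NCU06316 overlap. The BAR domain gene NCU01068 and amph-1 stood between NCU01067 at 1.90 and NCU01070 at 3.21.

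A gene chosen after its values were seen, NCU00798, had 0 counts in all 3 HSAF-0 libraries and 86.3, 28.5 and 49.7 CPM in HSAF-5, at least 326-fold higher against a floor of 3 counts over the group. In HSAF-30 it had 0 counts in all 3 libraries, and in HSAF-60 0.342, 0 and 5.08 CPM. Of the called genes, 7 had 0 counts in HSAF-0 and 10 had 0 counts in HSAF-5.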
